A study of Caenorhabditis elegans with 18 samples.

Results

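The 3582 loci described here are genes of *C. elegans* whose antisense 22G-RNAs were assigned to the CSR-1 class in the deposited small RNA table and that had no row in the WAGO class. They were taken from 3608 CSR-1 class rows, of which 26 were also listed as WAGO class and were left out, and the 6 small RNA classes together held 23147 rows. The measurements were small RNA libraries and ribosomal RNA-depleted mRNA libraries of whole gravid hermaphrodites grown from arrested L1 larvae for 72 h at 20 °C on *E. coli* OP50. Each kind had 3 biological replicates of each of 3 genotypes. Wildtype was the N2 strain. The *tcer-1(tm1452)* allele is an existing allele, and the study describes developmental asynchrony in that strain. The *tcer-1(glm27)* allele was made by CRISPR with a pair of guides placed on either side of the coding sequence and a repair template. The mutant strains were CF2166 for *tcer-1(tm1452)* and AGP278 for *tcer-1(glm27)*, and the mutants are called *tm1452* and *glm27* below. Neither mutant carried another listed allele or transgene, and no group received a treatment. The RNA came from whole animals, so fewer germ cells and less RNA per germ cell cannot be told apart in any value below.

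CSR-1 is the essential Argonaute protein of the germline that binds 22G-RNAs made against expressed, mostly germline, messenger RNAs. These short RNAs are synthesised by the RNA-dependent RNA polymerase EGO-1 together with the helicase DRH-3 and the Tudor protein EKL-1, they are antisense to their template, and they start with G. The CSR-1 pathway is known for licensing germline genes against silencing, for trimming some maternal transcripts by slicing, and for chromosome segregation in the early embryo. WAGO Argonautes bind a separate set of 22G-RNAs that silence transposons, pseudogenes and foreign sequence. TCER-1 is a worm factor of transcription elongation and splicing, and its own gene is one of the CSR-1 loci.

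The sequences that frame the results are the pair of glm27 guides, which flank the part to be removed, and a stretch of *tcer-1* that has a copy nearby. The guides are those listed by the study, with the adjacent PAM read from the WBcel235 genome and printed in capitals. In that genome the upstream guide lies at chrII:7050106-7050128 on the plus strand and the downstream guide at chrII:7045502-7045524 on the minus strand. The *tcer-1* stretch, at chrII:7046636-7046695 on the minus strand, also occurs in the pseudogene *ZK1127.6*. In it, as in the coding stretches further on, capitals mark each C, the base that pairs with the first G of a 22G-RNA.
upstream guide: aaaacagtagtctagcataaTGG
downstream guide: tccaacgataaatttgagtaCGG
*tcer-1*: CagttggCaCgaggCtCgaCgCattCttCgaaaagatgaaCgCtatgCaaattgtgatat

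Coding stretches of 9 loci on which the results turn are shown next, each as the first 60 bases of its first long coding exon in the RefSeq WBcel235 sequence with the Ensembl annotation. *cls-2*, *klp-7* and *cec-6* are loci of high 22G-RNA level, *hcp-3* encodes the centromeric histone, *cls-3* and *symk-1* lost 22G-RNAs in both alleles, *prp-39* and *Y54G9A.5* gained them in both, and *F10G7.10* differed between the alleles. The stretches hold from 7 to 18 possible start positions for a 22G-RNA. The deposited tables hold a single value per locus, so which of these positions were used was not measured here. In order, they lie at chrIII:9055052-9055111 (plus), chrIII:10805930-10805989 (plus), chrIV:5544860-5544919 (plus), chrIII:9616394-9616453 (minus), chrIII:9191018-9191077 (minus), chrV:8570311-8570370 (plus), chrV:5682571-5682630 (minus), chrII:13723075-13723134 (plus) and chrII:4726080-4726139 (minus).
*cls-2*: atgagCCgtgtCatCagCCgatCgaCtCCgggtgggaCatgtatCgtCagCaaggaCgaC
*klp-7*: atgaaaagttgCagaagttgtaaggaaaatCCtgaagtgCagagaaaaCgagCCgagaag
*cec-6*: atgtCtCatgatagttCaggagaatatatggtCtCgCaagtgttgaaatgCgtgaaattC
*hcp-3*: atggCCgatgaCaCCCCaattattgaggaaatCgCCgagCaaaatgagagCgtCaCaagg
*cls-3*: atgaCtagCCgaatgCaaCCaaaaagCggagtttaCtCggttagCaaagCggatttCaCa
*symk-1*: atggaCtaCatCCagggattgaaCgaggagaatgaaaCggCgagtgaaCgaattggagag
*prp-39*: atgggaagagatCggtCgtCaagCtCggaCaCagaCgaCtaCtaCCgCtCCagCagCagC
*Y54G9A.5*: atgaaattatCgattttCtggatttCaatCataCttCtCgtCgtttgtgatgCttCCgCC
*F10G7.10*: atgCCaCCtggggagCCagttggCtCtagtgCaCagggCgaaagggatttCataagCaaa

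Small RNA values are in RPM, read numbers that the authors scaled to the depth of each library, and summed to between 613147 and 639710 RPM per library over the listed features. The mRNA values are normalized counts that summed to between 22491326 and 23721969 per library. Replicates of the small RNA libraries correlated with Pearson r of at least 0.99 on the log2 scale, except replicate 3 of *tm1452*, which reached 0.936 and 0.941 with its partners. Over the CSR-1 loci alone the same library reached at least 0.982. Summed mRNA of 10 germline and oocyte markers, 9 of them CSR-1 loci themselves, was 248900 to 261900 in wildtype, 160800 to 176100 in *tm1452* and 166300 to 179200 in *glm27*. Summed mRNA of 11 sperm markers was 165.7 to 214.4, 5023 to 5755 and 1086 to 1351 in the same order. For 10 body wall muscle markers the ranges were 47700 to 59990, 164700 to 186600 and 68950 to 75550, for 10 epidermis markers 28830 to 29360, 87970 to 91680 and 51300 to 61690, and for 10 intestine markers 1310000 to 1600000, 916800 to 928000 and 1487000 to 1629000. No marker was at 0 in all libraries, and the part of these shifts in the results below was not tested.

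The gene *tcer-1* (WBGene00022855, chromosome II, 7045874 to 7050071, minus strand, 3430 exonic bases in WBcel235) was itself a CSR-1 locus. The mRNA and 22G-RNA values assigned to it moved differently in the alleles. Its mRNA was 5877, 6034 and 6346 normalized counts in wildtype, 958.6, 862.3 and 1026 in *tm1452*, and 528.5, 496.2 and 470.0 in *glm27*. The groups did not overlap, and the log2 fold changes were −2.68 and −3.61 (SE 0.07 each, limma adjusted p = 4.19e-13 and 8.54e-14). Its 22G-RNAs were 19.42, 19.63 and 19.45 RPM in wildtype, 15.84, 16.26 and 14.97 RPM in *tm1452*, and 45.64, 45.02 and 43.63 RPM in *glm27*. All *glm27* libraries were thus above all others. The log2 fold changes of the 22G-RNAs were −0.30 in *tm1452*, a value that became 0.01 when libraries were rescaled by the median of ratios, and 1.16 in *glm27* (SE 0.05 each, limma adjusted p = 0.00201 and 6.39e-07). Between the alleles the difference was −1.46 (limma adjusted p = 4.1e-07).

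The end points of the glm27 deletion were inferred from the listed guides and repair template and were not read from data. The inferred interval, chromosome II 7045509 to 7050121, spans 4613 bases and covers all 3430 exonic bases of *tcer-1*. If it holds, no exonic base of *tcer-1* remains in *glm27*. The *glm27* values above are then reads assigned to a gene whose exons are gone, and their source was not tested. Of the 3283 exonic 22-mers of *tcer-1*, 1138 (34.7%) also occur at another genomic position. Each has a copy in the part of chromosome II around the pseudogene *ZK1127.6* (WBGene00022853, chromosome II, 7043055 to 7044371, plus strand). That pseudogene lies 1502 bases away and outside the inferred deletion, and how many of the 1138 fall within it was not counted. It shares with *tcer-1* a run of 447 identical bases, from which the *tcer-1* sequence printed above was taken. Reads of the shared part cannot be told apart between the gene and its copy. The pseudogene's mRNA value fell from 1656 ± 86.5 normalized counts (SD, n = 3) in wildtype to 343 ± 8.79 in *tm1452* and 165 ± 12.9 in *glm27*, log2 fold changes of −2.27 and −3.32 (SE 0.07 each, limma adjusted p = 4.91e-12 and 4.54e-13).

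In wildtype the CSR-1 loci carried many low levels and few high ones. Of the 3582 loci, 3567 had reads in all 9 libraries and 1 had none in any. For testing, a locus had to average 2 RPM or more across its 9 libraries, which 3133 did. The 449 left out include 38 whose mean in a mutant was at least 2 RPM. Among the tested loci the median wildtype level was 11.9 RPM and the range from the 5th to the 95th percentile was 3.11 to 53.8 RPM, against a median of 39.3 RPM at 2043 tested loci that were WAGO class only. Per kilobase of exon the median was 6.63 RPM, with 2.15 to 26.5 RPM between the same percentiles.

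The highest locus in wildtype was *cls-2*, a CLASP family microtubule regulator needed for spindle assembly. Its 22G-RNAs were 599.64, 634.69 and 620.03 RPM in wildtype, 437.1, 439.68 and 482.37 RPM in *tm1452*, and 553.47, 545.18 and 540.38 RPM in *glm27*. Both mutants lay below wildtype without overlap, by −0.45 and −0.18 on the log2 scale (SE 0.05 each, limma adjusted p = 0.000108 and 0.0156), the second of which turned to 0.22 after rescaling by the median of ratios. The next by RPM were *snrp-200*, a helicase of the spliceosome, at 418 ± 11.98 RPM, the topoisomerase gene *top-2* at 239 ± 4.25 RPM, the DNA damage kinase gene *atm-1* at 231 ± 3.67 RPM and the chromodomain gene *cec-6* at 228 ± 12.3 RPM (SD, n = 3). Of *top-2* exonic 22-mers 38.1% recur elsewhere in the genome, so its value is less certain. *atm-1* was 228 ± 27.9 and 214 ± 5.44 RPM in the alleles (limma adjusted p = 0.758 and 0.274), with −0.03 and −0.11 on the log2 scale.

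Per kilobase of exon, *cls-2* (185 RPM per kb in wildtype) was followed by *F13D12.5* (141), the tri-snRNP gene *snrp-27* (140), the histone chaperone gene *unc-85* (117) and *T19H12.2* (101). *snrp-27* was higher in *tm1452*, with 126.9 ± 14.2 RPM against 85.7 ± 4.35 RPM in wildtype (log2 fold change 0.56, limma adjusted p = 0.000543), while its mRNA was lower by −0.68 (limma adjusted p = 2.02e-07). For *klp-7*, a microtubule depolymerase of the kinesin-13 family and a known CSR-1 target, the 22G-RNAs were 147.16, 153.51 and 149.04 RPM in wildtype, 116.18, 113.61 and 119.77 RPM in *tm1452*, and 137.95, 136.98 and 123.68 RPM in *glm27*. For *hcp-3*, named here although chosen after its values were seen, they were 85.7, 94.38 and 92.77 RPM, then 65.98, 71.33 and 72.59 RPM, then 78.87, 87.83 and 70.45 RPM. The wildtype libraries of *klp-7* lay above all mutant libraries, although its *glm27* value of −0.17 turned to 0.22 after the median of ratios. Those of *hcp-3* overlapped *glm27*, where the log2 fold change of −0.20 had a limma adjusted p of 0.0731.

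The loci had features that the class label did not use. Of the 3579 with a position in WBcel235, 99.4% were protein coding, against 86.8% of WAGO loci. Their exonic length had a median of 1724 bases, against 1208 bases for 10972 other protein-coding genes with a tested mRNA and 1251 bases for WAGO loci. Their wildtype mRNA level had a median of 1176 normalized counts per kb of exon, against 37.1 and 58.98 per kb in those sets. The C content of their exons had a median of 20.8%, close to the 20.0% and 20.3% of the others. Chromosomes differed in their share. The X chromosome held 178 CSR-1 loci (4.97%) but 14.1% of the coding genes tested, and chromosomes I and III held 23.1% and 22.6% of CSR-1 loci but 15.8% and 14.9% of those genes. The 57 X-linked loci that could be tested had a median of 3.89 RPM in wildtype.

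Across 3128 loci the wildtype 22G-RNA level per kb and mRNA level per kb were weakly related (Spearman correlation 0.217, Pearson r 0.235), a description over genes that share libraries and a length divisor. From the lowest to the highest of 5 equal bins of mRNA per kb, the median 22G-RNA level rose from 4.86 to 7.59 RPM per kb while the median mRNA level rose from 489 to 3626 normalized counts per kb. The 22G-RNA level in RPM followed exon length more closely (Spearman correlation 0.511), and its level per kb showed little relation to the C content of the exons (Spearman correlation 0.041). At WAGO loci the Spearman correlation between 22G-RNA and mRNA per kb was −0.109 over 1726 genes.

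Summed over all 3582 loci, CSR-1 class 22G-RNAs were lower in RPM in both mutants, and the direction depended on the scaling. The sums were 59508, 60051 and 59787 RPM in wildtype, 47696, 47985 and 53071 RPM in *tm1452*, and 48428, 50364 and 44897 RPM in *glm27*. Every mutant library lay below every wildtype library, at 0.829 and 0.801 times the wildtype mean (exact two-sided permutation p = 0.1 each, the smallest that 3 against 3 can give). As a share of the 6 classes the loci took 9.51 ± 0.0721%, 7.88 ± 0.671% and 7.61 ± 0.481% (SD, n = 3). Rescaling each library by the median of ratios gave 1.04 and 1.05 times wildtype, and equal miRNA totals gave 0.637 and 0.608 times wildtype. After the median of ratios the sums were 51547, 50900 and 50608 in wildtype, 50806, 50995 and 57233 in *tm1452*, and 53127, 55587 and 52220 in *glm27*. Only replicate 3 of *tm1452* was thus above the wildtype range, while all *glm27* libraries were. The 100 highest loci held 20.3 ± 0.142% of the sum in wildtype, 20.7 ± 0.130% in *tm1452* and 22.6 ± 0.346% in *glm27*.

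**Figure D1:**
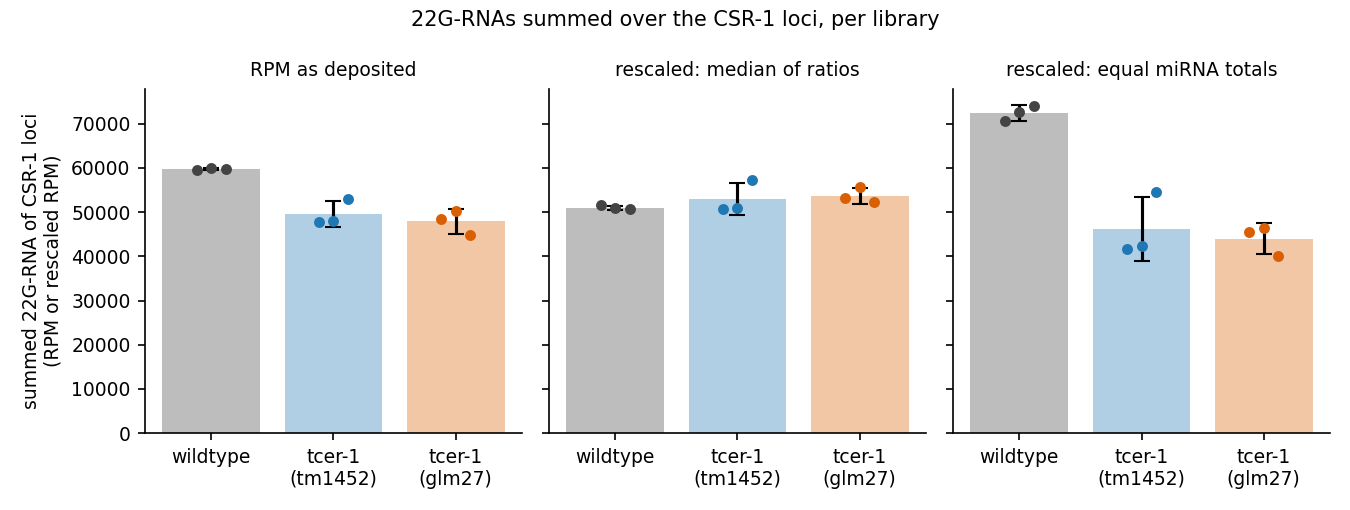
22G-RNAs summed over the CSR-1 loci in each of 9 small RNA libraries (y axis, RPM or rescaled RPM), with bars at group means, error bars of 1 SD (n = 3) and a point per library. In the deposited RPM every mutant library lies below wildtype, while after the median of ratios the mutant means are 1.04 and 1.05 times wildtype and with equal miRNA totals 0.637 and 0.608 times.

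Locus by locus the decrease was broad and small. The median log2 fold change of the 3133 tested loci was −0.28 in *tm1452* and −0.36 in *glm27*, folds of 0.823 and 0.778, and 83.5% and 89.7% of the loci were below 0. Over all 7376 small RNA features tested, the median was −0.33 in each allele, and at WAGO loci it was −0.31 and −0.41. The scaling factors, applied alike to all small RNA features before the pseudocount, differed from wildtype by 0.32 and 0.39 on the log2 scale (median of ratios) or by −0.39 and −0.40 (equal miRNA totals). The CSR-1 median minus that of all tested features, which include these loci, was 0.05 and −0.03, a difference that these rescalings changed little. Without the filter on low values it was −0.21 and −0.27, as the median of all features was then −0.06 and −0.07. The spread at CSR-1 loci was narrower than at WAGO loci. From the 5th to the 95th percentile the changes at CSR-1 loci ran from −0.77 to 0.22 and from −0.89 to 0.15, against −2.37 to 1.20 and −2.22 to 0.99 at WAGO loci.

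In the deposited RPM few CSR-1 loci moved by 2-fold, and their number depended on the scaling. A call asked for at least a 2-fold change and a limma adjusted p under 0.05 over all small RNA features tested. In *tm1452* 43 loci (1.37%) were called lower and 10 (0.319%) higher, against 10.9% and 3.73% of all features. In *glm27* 90 loci (2.87%) were lower and 7 (0.223%) higher, against 9.08% and 1.68%. Calls in the same direction in both alleles, which share their wildtype libraries, numbered 20 lower and 4 higher, against 5.69% and 1.03% of all features. Between the alleles 10 loci were lower and 9 higher in *tm1452*, against 2.43% and 3.93%. At any size of change, a count added after seeing the data, 1475 (47.1%) were lower and 97 (3.10%) higher in *tm1452*, against 42.2% and 10.2% of all features. In *glm27* 1789 (57.1%) were lower and 90 (2.87%) higher, against 44.3% and 7.5%, and in both alleles 1267 (40.4%) and 43 (1.37%), against 32.9% and 5.18%. After the median of ratios these any-size counts in both alleles were 237 lower and 238 higher. The 2-fold lower counts in *tm1452*, *glm27* and both were then 12, 16 and 6, and with equal miRNA totals 297, 577 and 225.

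The mRNAs of the same loci were lower in both alleles, at a median below that of other genes. Of the 3582 loci, 3580 had a row in the mRNA table and 3567 were tested. The other 2 were *F44E2.2*, with 26.8 RPM of 22G-RNAs in wildtype, and *Y48G1BL.4*, with 2.40 RPM. The median log2 fold change was −0.31 in *tm1452* and −0.35 in *glm27*, against 0.02 and 0.13 over all 17037 mRNAs and 0.31 and 0.36 over other protein-coding genes. The CSR-1 median minus that of all mRNAs was −0.33 and −0.48. At any size of change 2580 loci (72.3%) were lower and 267 (7.49%) higher in *tm1452*, against 34.1% and 35.3% of all mRNAs. In *glm27* 2788 (78.2%) were lower and 170 (4.77%) higher, against 27.5% and 33.2%, and in both alleles 2381 (66.8%) and 112 (3.14%), against 22.7% and 24.8%. Summed germline and oocyte markers, given above, fell in the same direction, and their part in this was not tested.

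At 2-fold the picture was again one of few calls. In *tm1452* 74 of the 3567 mRNAs were lower and 21 higher, against 7.51% and 20.2% of all mRNAs, and in *glm27* 42 and 7, against 2.07% and 14.5%. In both alleles 30 were lower and 5 higher, against 1.24% and 11.0%. Between the alleles 22 were lower and 10 higher in *tm1452*, against 8.08% and 11.4%.

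**Figure D2:**
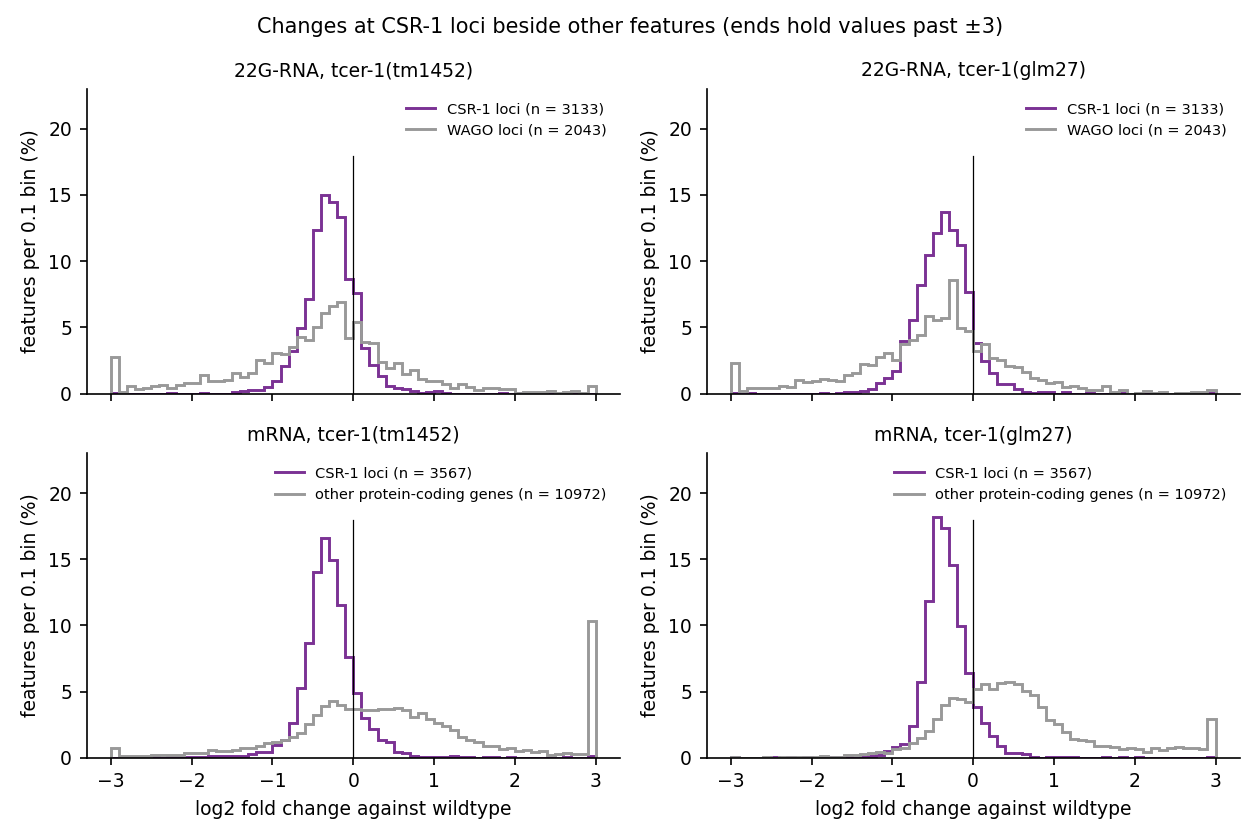
Share of features in each 0.1-wide bin of log2 fold change against wildtype (y axis, percent; x axis, log2 fold change) for 22G-RNAs (top) and mRNAs (bottom) in *tm1452* (left) and *glm27* (right), with the end bins holding all values past ±3. The 3133 CSR-1 loci form a narrow peak with medians of −0.28 and −0.36 inside the broader WAGO distribution, and their mRNAs peak below 0, with medians of −0.31 and −0.35, where other protein-coding genes spread above it.

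In the deposited RPM, lower mRNA was slightly more frequent at loci with lower 22G-RNAs than at CSR-1 loci at large. Of 3128 loci with both measures and a position, the change in 22G-RNAs and the change in mRNA were weakly related across genes, with Spearman correlations of 0.135 in *tm1452* and 0.152 in *glm27*. At any size and in both alleles, 965 loci were lower in both kinds of RNA. These were 76.2% of the 1267 with lower 22G-RNAs, beside lower mRNA at 70.2% of all 3128, and 44.0% of the 2195 with lower mRNA. A further 288 were lower in 22G-RNAs without an mRNA call and 1204 were lower in mRNA without a 22G-RNA call. Opposite directions were found at 26 of the 43 loci with higher 22G-RNAs, which had lower mRNA, beside 70.2% of all 3128. The reverse was found at 14 of the 1267 with lower 22G-RNAs. These any-size joint counts rest on the deposited scaling. After the median of ratios the 22G-RNA calls in both alleles were 237 lower and 238 higher, and the joint counts were not repeated. At 2-fold in both alleles, 4 loci were lower in both kinds, namely *unc-73*, *cls-3*, *alg-5* and *F20G4.2*, and 16 were lower in 22G-RNAs alone. Across the 5 bins of wildtype mRNA level the median change in 22G-RNAs was between −0.25 and −0.31 in *tm1452* and between −0.34 and −0.39 in *glm27*.

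The locus with the largest fall in 22G-RNAs among those called in both alleles was *unc-73* (WBGene00006805, chromosome I, 3999300 to 4031739, minus strand), which encodes a guanine nucleotide exchange factor that guides migrating cells and axons. Its 22G-RNAs were 177.56, 181.34 and 178.43 RPM in wildtype, 4.10, 3.30 and 5.30 RPM in *tm1452* and 6.73, 6.91 and 6.02 RPM in *glm27*. The log2 fold changes were −5.12 and −4.58 (SE 0.13 each, limma adjusted p = 2.9e-08 and 4.75e-08), at a locus that in wildtype stood far above the median of the class. Its mRNA went from 5783, 6032 and 5909 normalized counts to 1833, 1745 and 1842 and to 1936, 1904 and 1706, log2 fold changes of −1.71 and −1.68 (limma adjusted p = 3.6e-12 and 2.57e-11). The annotated gene *F55C7.9* overlaps it on the same strand, so reads of the overlap are uncertain.

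*cls-3* (WBGene00013847, chromosome III, 9186558 to 9191109, minus strand), a relative of *cls-2* in the CLASP family, lost most of both RNAs. Its 22G-RNAs were 11.74, 9.93 and 9.96 RPM in wildtype, 2.42, 2.43 and 2.0 RPM in *tm1452* and 0.31, 0.64 and 1.32 RPM in *glm27*, with no overlap between any groups. The log2 fold changes were −1.81 and −2.75 (SE 0.20 each, limma adjusted p = 0.00012 and 9.82e-06). Its mRNA fell from 2407 ± 54.1 to 490 ± 13.6 and 498 ± 14.2 normalized counts (SD, n = 3), −2.30 and −2.27 on the log2 scale. The exons of *cls-2* and *cls-3*, whose first coding stretches are printed above, share 0 of their 22-mers (3177 and 2858), so reads of the one do not match the other, and *cls-2* changed by far less.

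*alg-5*, which encodes a germline Argonaute that binds miRNAs, showed the same pairing. Its 22G-RNAs were 20.22, 20.34 and 19.93 RPM in wildtype, 7.72, 8.56 and 9.17 RPM in *tm1452* and 6.11, 6.59 and 6.76 RPM in *glm27*. The log2 fold changes were −1.16 and −1.50, and its mRNA fell from 5314 ± 155 to 991 ± 29.03 and 996 ± 83.3 normalized counts, −2.42 in each allele (limma adjusted p = 3.55e-13 and 1.22e-12). *F20G4.2* went from 7.34 ± 0.315 to 2.46 ± 0.280 and 2.66 ± 0.513 RPM of 22G-RNAs, and from 317 ± 28.4 to 89.2 ± 14.2 and 92.0 ± 16.5 normalized counts of mRNA.

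At other loci the 22G-RNAs fell while the mRNA did not follow. *vti-1*, a SNARE gene of vesicle traffic, had 10.18, 11.80 and 13.05 RPM in wildtype, 3.09, 4.18 and 4.49 RPM in *tm1452* and 4.10, 3.71 and 3.65 RPM in *glm27*. All mutant libraries lay below wildtype, and its mRNA was 382 ± 30.5, 386 ± 24.2 and 373 ± 11.1 normalized counts (limma adjusted p = 0.851 and 0.754). *rpl-10*, a protein of the large ribosomal subunit, had 15.34, 15.55 and 16.45 RPM, then 5.04, 6.74 and 6.24 RPM, then 6.34, 6.21 and 5.01 RPM, and its mRNA changed by 0.37 in *tm1452* and −0.01 in *glm27* (limma adjusted p = 0.000127 and 0.855).

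*symk-1*, a symplekin homologue of mRNA 3′ end processing named after its values were seen, had tight replicates. Its 22G-RNAs were 142.82, 142.36 and 144.03 RPM in wildtype, 54.87, 56.03 and 55.28 RPM in *tm1452* and 61.88, 61.28 and 60.34 RPM in *glm27*. The log2 fold changes were −1.35 and −1.21 in 22G-RNAs but −0.27 and −0.41 in mRNA. The gene *C10B5.1* overlaps it on the same strand. *Y49A3A.3*, *H20J04.9* and *R119.3* fell in 22G-RNAs by −1.49, −1.40 and −1.32 in *tm1452* and by −1.56, −1.90 and −1.32 in *glm27*. *ilcr-2*, *sax-1*, *F54F2.9*, *dagl-2*, *algn-9*, *gpaa-1*, *C07D8.6*, *fbxc-50*, *CC8.2* and *arrd-13* complete the 20. After rescaling by the median of ratios 6 of the 20 kept the 2-fold call in both alleles (*unc-73*, *cls-3*, *Y49A3A.3*, *H20J04.9*, *vti-1* and *R119.3*), and with equal miRNA totals all 20 did. Without wildtype replicate 1, or without *glm27* replicate 3, *CC8.2* and *arrd-13* fell below 2-fold. So did *arrd-13* without *tm1452* replicate 1 and *C07D8.6* without wildtype replicate 2.

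At 4 loci the 22G-RNAs were at least 2-fold higher in both alleles, against the direction of the class. *M04F3.5* had 18.46, 19.78 and 20.78 RPM in wildtype, 86.42, 88.88 and 98.32 RPM in *tm1452* and 174.34, 178.78 and 180.76 RPM in *glm27*. The 3 groups were fully apart, with log2 fold changes of 2.16 and 3.12 (SE 0.06 each, limma adjusted p = 5.83e-08 and 1.23e-08). Its mRNA was lower, at 2391 ± 56.5, 2066 ± 80.3 and 1751 ± 76.4 normalized counts.

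*prp-39*, a splicing factor of the U1 snRNP, had 24.04, 27.56 and 26.88 RPM in wildtype, 93.41, 92.25 and 109.13 RPM in *tm1452* and 93.15, 94.91 and 93.61 RPM in *glm27*. The alleles reached similar levels, with log2 fold changes of 1.87 and 1.81 (SE 0.08 each, limma adjusted p = 3.1e-07 and 4.27e-07), and the mRNA was lower by −0.44 and −0.59 (limma adjusted p = 4.64e-06 and 4.06e-07). *Y54G9A.5* had 26.59, 27.56 and 29.89 RPM, then 58.42, 54.92 and 57.75 RPM, then 94.93, 94.71 and 94.76 RPM, so that the *glm27* libraries were again highest. Its log2 fold change of 1.0 in *tm1452* lay at the 2-fold line, and fell under it, to between 0.97 and 0.99, without wildtype replicate 1 or 2 or *tm1452* replicate 1 or 3. Its mRNA was lower by −0.49 and −0.55.

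*mca-1*, a plasma membrane calcium ATPase, started low, with 2.05, 3.05 and 2.01 RPM in wildtype, 11.68, 14.69 and 12.41 RPM in *tm1452* and 7.66, 8.06 and 8.93 RPM in *glm27*. The log2 fold changes were 2.06 and 1.46, and those of its mRNA were 0.26 and 0.12 (limma adjusted p = 0.000869 and 0.0695). All 4 loci kept their call after rescaling by the median of ratios or by upper quartiles, and 3 kept it with equal miRNA totals, *Y54G9A.5* being the exception. With a pseudocount of 5 *Y54G9A.5* and *mca-1* lost the call, and *mca-1* was not among the calls with a filter at a mean of 10. More than 10% of exonic 22-mers were found elsewhere in the genome at 0 of the 4 and 1 of the 20 loci, against 236 (6.59%) of all CSR-1 loci. Counts this small cannot decide whether repeated sequence played a part, which was not tested.

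**Figure D3:**
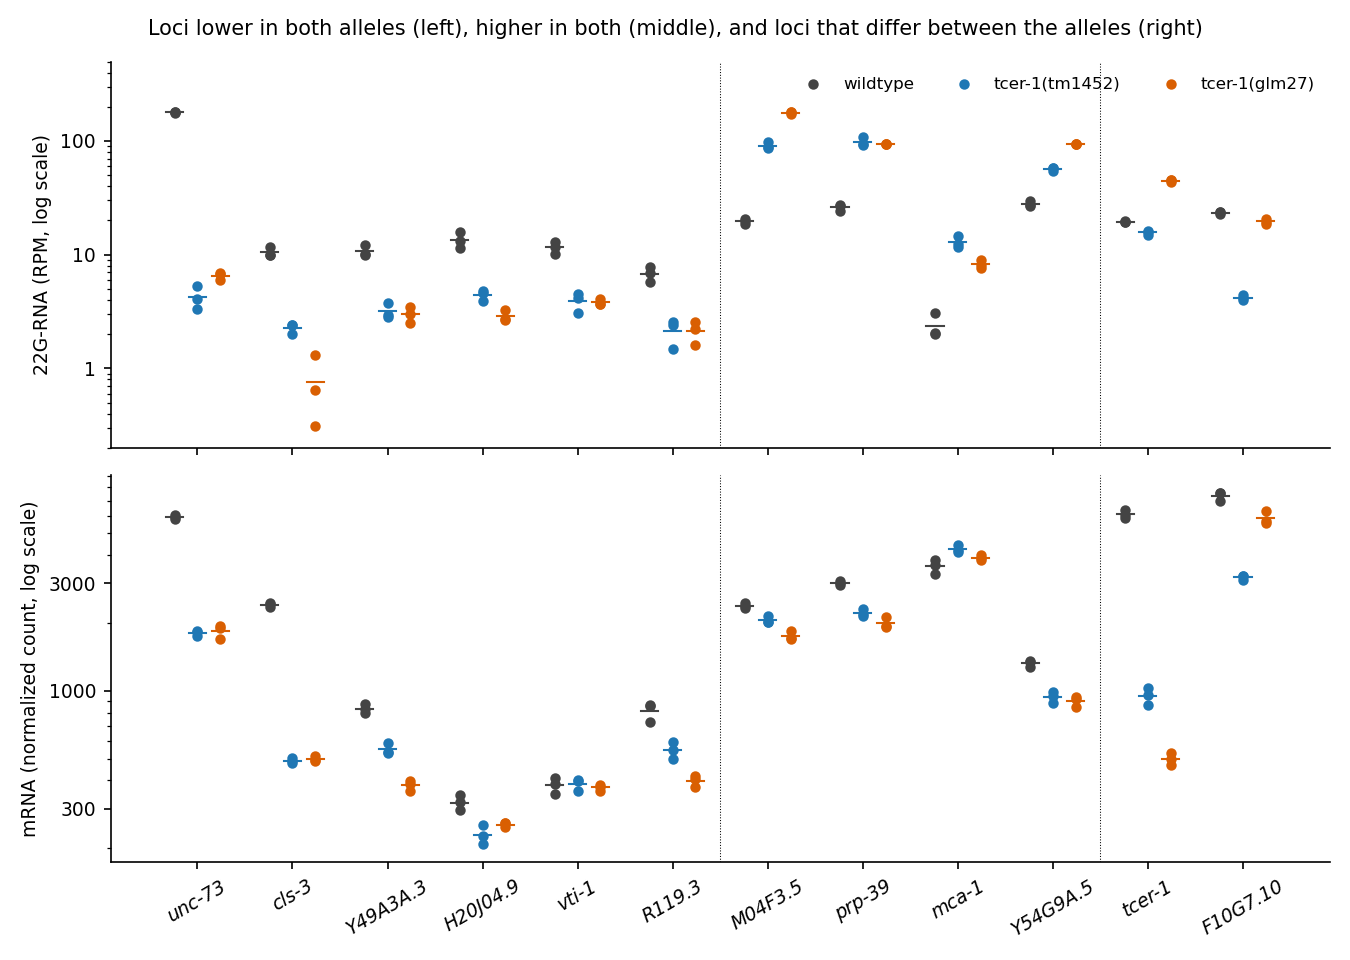
22G-RNA level (top, RPM, log scale) and mRNA level (bottom, normalized counts, log scale) of 12 CSR-1 loci in each library, with a point per library and a line at each group mean (n = 3). The 6 loci at left were lower in both alleles, and the 4 in the middle were higher in both. Reads assigned to *tcer-1* reach 44.8 RPM in *glm27* with 498 normalized counts of mRNA, although the inferred deletion removes its exons. *F10G7.10* falls to 4.20 RPM in *tm1452* alone.

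The alleles differed most at a handful of loci. *F10G7.10* (chromosome II, 4713673 to 4726264, minus strand) had 23.62, 22.77 and 23.71 RPM in wildtype, 4.03, 4.38 and 4.18 RPM in *tm1452* and 20.66, 19.48 and 18.74 RPM in *glm27*. The difference between the alleles was −1.99 (SE 0.07, limma adjusted p = 3.54e-07), and the mRNA went the same way, from 7345 ± 352 to 3190 ± 85.0 and 5845 ± 388 normalized counts. *lrp-2*, of the LDL receptor family, was 5.37 ± 0.513 RPM in wildtype, 1.84 ± 0.176 RPM in *tm1452* and 9.78 ± 1.51 RPM in *glm27*, so that the alleles moved in opposite directions (−1.17 and 0.75). Its mRNA was higher in both by 0.37 and 0.31. The *tm1452* allele was the higher one at *ints-5*, an Integrator subunit, with 32.8 ± 0.971, 62.6 ± 3.94 and 25.8 ± 2.42 RPM, and at the X-linked loci *madd-3* (3.89 ± 0.435, 9.45 ± 1.44 and 2.50 ± 0.405 RPM) and *gakh-1* (2.30 ± 0.329, 6.21 ± 0.531 and 1.85 ± 0.110 RPM). The *glm27* value of *ints-5*, −0.34, turned to 0.04 after the median of ratios, and that of *gakh-1*, −0.21, did not pass the test (limma adjusted p = 0.188). For *madd-3* the log2 fold change in *tm1452* was 1.09, and 0.98 without replicate 3 of that allele.

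Next to the deletion, several CSR-1 loci had more 22G-RNAs in *glm27* than in *tm1452*. This neighbourhood was looked at after its values were seen, so its counts are a description. Within 50000 bases of the inferred deletion on the side of the *tcer-1* promoter, 8 CSR-1 loci were tested. Of these, 6 were above 0 and 5 were higher at any size of change in *glm27*, against 7.5% of all features, and 0 were higher in *tm1452*. Their median change was 0.37 in *glm27* and −0.40 in *tm1452*, beside −0.33 in each over all features. On the other side 3 loci were tested, 0 were higher in *glm27*, and the medians were −0.35 and −0.44.

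The nearest was *ZK1127.5*, 550 bases from the deletion and on the plus strand. Its 22G-RNAs were 20.58, 22.42 and 21.09 RPM in wildtype, 13.83, 15.30 and 15.96 RPM in *tm1452* and 30.64, 30.40 and 31.52 RPM in *glm27*. The groups lay apart, by −0.48 and 0.51 on the log2 scale (SE 0.07 each, limma adjusted p = 0.000497 and 0.000347), and the mRNA went the same way, with 1308 ± 43.97, 1148 ± 31.8 and 1664 ± 78.2 normalized counts. *ZK1127.4*, at 3827 bases, had 8.70, 7.85 and 6.87 RPM, then 6.18, 6.13 and 4.93 RPM, then 14.08, 13.70 and 13.26 RPM. *ZK1127.3*, at 5165 bases, had 7.35 ± 0.560, 4.44 ± 0.577 and 10.4 ± 0.490 RPM. Their mRNAs changed by −0.19 and −0.69 in *tm1452* and by 0.37 and 0.27 in *glm27*.

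Farther out, *nos-2*, a Nanos family regulator of germ cells that lies inside *him-14* on the opposite strand, had 6.39, 6.13 and 7.03 RPM in wildtype, 6.77, 6.09 and 6.53 RPM in *tm1452* and 11.88, 12.78 and 11.74 RPM in *glm27*. Only the *glm27* libraries of *nos-2* stood apart, by 0.81 (limma adjusted p = 8.02e-05), and 50.6% of its exonic 22-mers recur elsewhere in the genome. The mRNA of *nos-2* was lower in both alleles, by −0.58 and −0.23. The MutS homologue gene *him-14*, needed for meiotic crossovers, changed by −0.41 and 0.23 (limma adjusted p = 0.00566 and 0.0675), and the lysyl-tRNA synthetase gene *kars-1*, at 20061 bases, by −0.77 and 0.30 (limma adjusted p = 0.000339 and 0.0396). At *T02G5.7* (25492 bases) and *mct-5* (46227 bases) the *glm27* values were −0.11 and −0.61.

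The signs depended in part on the scaling. With equal miRNA totals the 6 loci from *ZK1127.5* to *kars-1* gave 0.13, 0.38, 0.09, −0.15, 0.45 and −0.08 in order of distance, and after the median of ratios 0.89, 1.10, 0.79, 0.60, 1.16 and 0.66. In *tm1452* the median of ratios brought *ZK1127.4* and *him-14* to −0.10 each and *nos-2*, which did not pass the test as deposited (−0.01, limma adjusted p = 0.927), to 0.27. The difference between the alleles as deposited was −0.99, −1.13, −1.07, −0.63, −0.82 and −1.06, and all 6 passed the adjusted p under every scaling tried. On the other side, *cin-4*, at 3823 bases, changed by −0.36 and −0.35, *znf-598* by −0.44 and −0.14 and *lst-6* by −0.48 and −0.51.

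**Figure D4:**
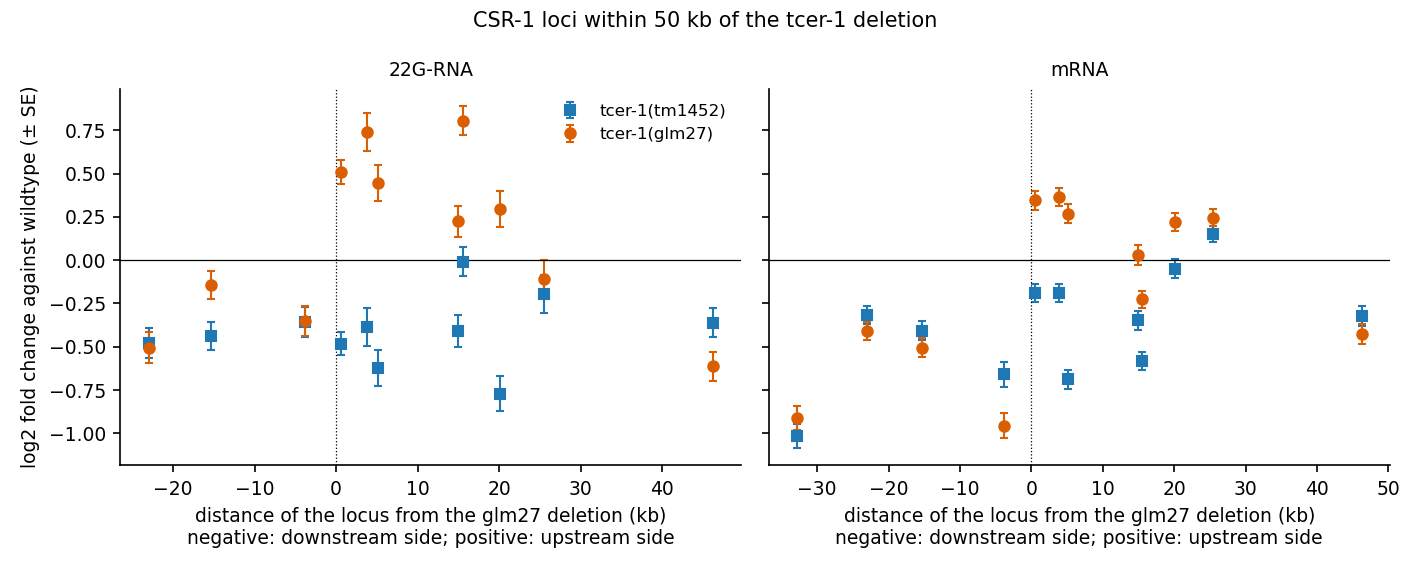
Log2 fold change against wildtype (y axis, with SE) of the CSR-1 loci within 50000 bases of the glm27 deletion, by distance in kb (x axis, negative on the downstream side of *tcer-1*), for 22G-RNAs (left) and mRNAs (right). In *glm27* the 22G-RNAs of the 6 nearest loci on the upstream side are above 0, from 0.23 to 0.81, and in *tm1452* none is higher.

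The mRNAs that fell most in both alleles were, after *tcer-1*, those of *alg-5* and *cls-3*, then *C17E4.11* (298 ± 7.95 to 71.8 ± 8.04 and 72.4 ± 11.8 normalized counts) and *Y43B11AR.3* (319 ± 25.9 to 90.0 ± 12.2 and 90.8 ± 2.50). The last 2 had 2.67 and 2.12 RPM of 22G-RNAs in wildtype and were under the filter. *mex-6*, a zinc finger protein of the early embryo named after its values were seen, fell by −1.05 in both alleles, and its 22G-RNAs by −0.93 and −1.10. Without wildtype replicate 1, or with equal upper quartiles, its mRNA was no longer called at 2-fold.

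The 5 mRNAs that rose at least 2-fold in both alleles came from a low wildtype level. *Y39G10AR.15* went from 1.05 ± 1.14 to 68.0 ± 9.66 and 15.1 ± 4.17 normalized counts, *set-28* from 6.33 ± 3.00 to 163 ± 2.26 and 29.3 ± 8.22, *dml-1* from 5.96 ± 2.88 to 41.04 ± 7.26 and 19.3 ± 4.25, *C02G6.2* from 0.348 ± 0.603 to 15.9 ± 7.87 and 4.26 ± 3.33, and *T24E12.1* from 39.8 ± 6.22 to 140 ± 14.5 and 96.2 ± 11.1. *Y39G10AR.15* and *C02G6.2* averaged under 2 in wildtype and passed the filter only through the mutant libraries, where they were higher. Their calls and their low wildtype level thus rest in part on the selection. The call of *C02G6.2* in *glm27* was lost without replicate 2 of that allele (1.39). All 5 were higher in *tm1452* than in *glm27*, as were the sperm markers given above, and the part of those in this order was not tested. The 22G-RNAs of *set-28* did not pass the test, at 4.18 ± 0.589, 4.13 ± 0.992 and 4.74 ± 0.240 RPM (limma adjusted p = 0.897 and 0.45), and 60.7% of its exonic 22-mers recur elsewhere. The others were below the filter on 22G-RNAs.

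Genes that make and use CSR-1 22G-RNAs were lower in mRNA, as were most CSR-1 loci. Of 8 genes listed, 7 were lower at any size in *tm1452* and 8 in *glm27*, beside 34.1% and 27.5% of all mRNAs, and none by 2-fold. Their medians were −0.36 and −0.47, beside −0.31 and −0.35 over all CSR-1 loci. The mRNA of *csr-1* was 11846, 11549 and 11812 normalized counts in wildtype, 9423, 9639 and 9685 in *tm1452* and 8977, 8239 and 8201 in *glm27*, without overlap (−0.29 and −0.47, limma adjusted p = 7.42e-05 and 1.16e-06). Its 22G-RNAs were 46.00, 46.48 and 43.29 RPM, then 36.06, 35.07 and 35.42 RPM, then 48.59, 49.21 and 44.98 RPM. They were thus lower in *tm1452* (−0.34, limma adjusted p = 0.00102) and overlapped wildtype in *glm27* (0.07, limma adjusted p = 0.319). The mRNA changes in the alleles were −0.33 and −0.47 for *ego-1*, −0.55 and −0.46 for *drh-3*, −0.29 and −0.26 for *ekl-1*, −0.93 and −0.89 for *cid-1*, the uridylyltransferase also called PUP-1 that tails CSR-1 22G-RNAs, and −0.56 and −0.73 for *prmt-5*, which methylates CSR-1. The last 3 are not CSR-1 loci. For the secondary Argonaute gene *wago-4* they were −0.39 and −0.44, and for the helicase gene *znfx-1* −0.13 and −0.25 (limma adjusted p = 0.0549 and 0.00127).

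Chromosome segregation genes were nearly all CSR-1 loci and nearly all lower in mRNA. Of 47 kinetochore and chromosome segregation genes listed, 45 were members, and 45 and 44 of these were lower in mRNA in the 2 alleles, with medians of −0.42 and −0.45, beside 72.3% and 78.2% and medians of −0.31 and −0.35 over all CSR-1 loci. Of their 44 tested 22G-RNAs, 29 and 25 were lower at any size, none by 2-fold, with medians of −0.29 and −0.28. These are 65.9% and 56.8%, beside 47.1% and 57.1% of all tested CSR-1 loci and 42.2% and 44.3% of all small RNA features, and the any-size 22G-RNA counts of this list and of those that follow rest on the deposited scaling. The condensin gene *dpy-28* was 17.9 ± 0.212, 12.7 ± 0.283 and 10.1 ± 0.435 RPM in 22G-RNAs (−0.46 and −0.77), and 3679 ± 137, 2414 ± 24.4 and 2293 ± 138 normalized counts in mRNA. The kinetochore gene *zwl-1* was 11.9 ± 1.67, 13.8 ± 0.849 and 13.6 ± 2.98 RPM (limma adjusted p = 0.287 and 0.428), and its mRNA was lower by −0.37 and −0.36.

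Other lists of dividing germ cells also held mostly lower mRNAs, to be read against the 72.3% and 78.2% of all CSR-1 loci. All 23 cell cycle loci were lower in both alleles (medians −0.52 and −0.53), as were 23 and 24 of 24 centrosome and spindle loci (−0.43 and −0.45), 10 and 10 of 10 replication origin and MCM loci (−0.54 and −0.54) and 26 and 28 of 33 synapsis and recombination loci (−0.30 and −0.47), the last at 78.8% and 84.8%. In 22G-RNAs 8 and 11 of the 23 cell cycle loci (34.8% and 47.8%) were lower, under the shares of all CSR-1 loci, and 1 was higher, *emb-27*, a subunit of the anaphase-promoting complex, at 46.7 ± 4.77, 57.7 ± 2.42 and 54.9 ± 1.44 RPM. With equal miRNA totals that locus turned to −0.08 and −0.16. *sas-6*, which builds the centriole cartwheel, was 11.1 ± 0.513, 6.23 ± 0.219 and 5.53 ± 0.691 RPM. *orc-1*, of the origin recognition complex, fell by −0.57 and −0.82, and *mcm-7*, of the replicative helicase, by −0.42 and −0.51.

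Maternal RNA regulators had the lowest mRNA medians of the lists compared, −0.64 and −0.67, and 25 and 26 of 27 were lower. Of their 26 tested 22G-RNAs 12 and 20 (46.2% and 76.9%) were lower, beside 47.1% and 57.1% of all CSR-1 loci. *spn-4*, an RNA-binding protein of the early embryo, was 14.97 ± 2.0, 9.18 ± 1.32 and 6.20 ± 0.514 RPM, and its mRNA fell by −0.72 and −0.74. *puf-5*, a Pumilio family repressor of oocytes, was 45.1 ± 0.973, 62.8 ± 9.47 and 36.3 ± 3.16 RPM, higher in *tm1452* by 0.46 and lower in *glm27* by −0.31, a value that turned to 0.08 after the median of ratios. Of 15 P granule loci 13 and 14 were lower in mRNA (−0.46 and −0.55), and of their 13 tested 22G-RNAs 9 and 7 (69.2% and 53.8%) were lower. *gls-1*, which encodes a partner of GLD-3, was 28.1 ± 0.803, 16.1 ± 1.66 and 14.7 ± 0.985 RPM. The helicase gene *glh-1* was 135 ± 4.56, 146 ± 5.04 and 164 ± 5.25 RPM, with mRNA changes of 0.00 and −0.08 that did not pass the test (limma adjusted p = 0.937 and 0.185), and 19.9% of its exonic 22-mers recur elsewhere. The change in its 22G-RNAs in *glm27*, 0.27, turned to −0.13 with equal miRNA totals.

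Germline chromatin, nuclear pore and proteasome loci were also lower in mRNA, with 21 and 19 of 21, 22 and 22 of 22, and 30 and 30 of 30. Their mRNA medians were −0.44 and −0.42, −0.45 and −0.44, and −0.40 and −0.38. In 22G-RNAs 12 and 10, 8 and 12, and 6 and 13 were lower, of 21, 22 and 29 tested. Only the first of these, germline chromatin in *tm1452* at 57.1%, lay above the share of all CSR-1 loci in its allele, and the proteasome list in *tm1452* was at 20.7%. *utx-1*, an H3K27 demethylase gene on the X chromosome, was 4.9 ± 0.338, 1.69 ± 0.550 and 3.47 ± 0.960 RPM, and its 2-fold call in *tm1452* was lost without replicate 2 of that allele. *mes-2*, the H3K27 methyltransferase gene, was 17.0 ± 0.993, 18.7 ± 1.55 and 24.1 ± 0.826 RPM, higher in *glm27* (0.48, limma adjusted p = 0.001). *npp-1* and *rpt-6*, of the nuclear pore and the proteasome, fell by −0.74 and −0.39 and by −0.78 and −0.87.

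Ribosomal protein loci were the exception in mRNA among the 14 lists plotted. Of 23 initiation factor loci 11 and 17 (47.8% and 73.9%) were lower in mRNA, beside 72.3% and 78.2% of all CSR-1 loci, with medians of −0.09 and −0.25. In 22G-RNAs 13 and 15 (56.5% and 65.2%) were lower, beside 47.1% and 57.1% of all tested CSR-1 loci. Of 78 cytosolic ribosomal protein genes 16 were CSR-1 loci, and 15 of these had higher mRNA in *tm1452* and 5 in *glm27*, with 0 lower in either and medians of 0.45 and 0.13. Over all mRNAs 35.3% and 33.2% were higher, with medians of 0.02 and 0.13. In *glm27* the number higher and the median were thus near those of all mRNAs. Of the 14 ribosomal protein loci with tested 22G-RNAs, 5 and 8 (35.7% and 57.1%) were lower and 0 higher, with medians of −0.30 and −0.46. *rps-3* was 33680 ± 1697, 46630 ± 1974 and 37450 ± 799 normalized counts in mRNA and 7.58 ± 0.340, 7.52 ± 1.45 and 7.09 ± 1.29 RPM in 22G-RNAs (limma adjusted p = 0.907 and 0.638). Of 21 splicing factor loci 19 and 21 were lower in mRNA (−0.28 and −0.30) and 4 and 5 (19.0% and 23.8%) in 22G-RNAs, with *prp-39* the one that was higher.

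**Figure D5:**
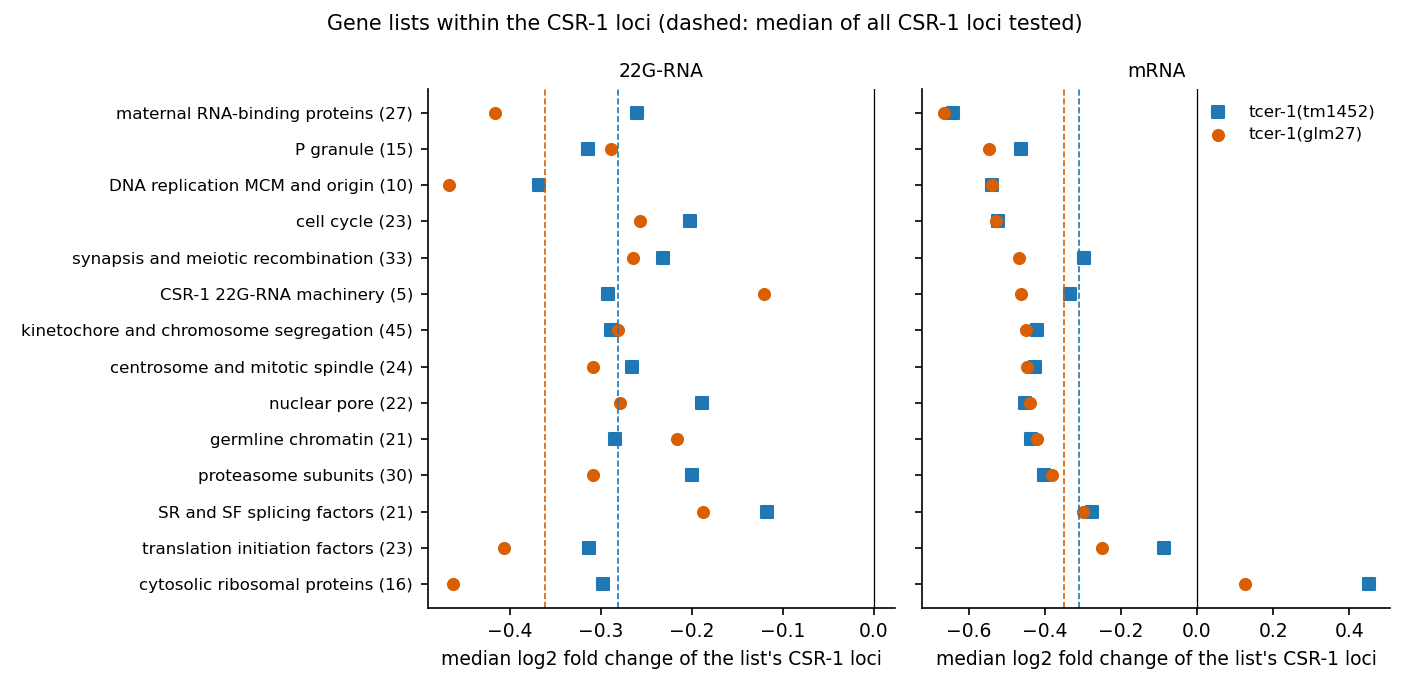
Median log2 fold change against wildtype (x axis) of the CSR-1 loci in each of 14 gene lists (number of loci in brackets) for 22G-RNAs (left) and mRNAs (right), with dashed lines at the median over all CSR-1 loci tested in each allele. The mRNA medians lie below 0 for 13 lists, from −0.67 to −0.09, and above 0 for ribosomal proteins, at 0.45 and 0.13.

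Some gene groups lay outside the CSR-1 loci. Of 37 spermatogenesis genes 1 was a member, *spe-39*, of 31 major sperm protein genes 0, and of 72 histone genes 2, *his-72* and *his-74*. Sperm-class small RNAs nonetheless touched the set, since 291 of the CSR-1 loci were also listed as ALG-3/4 class 26G-RNA loci. Their 26G-RNAs summed to 3.20, 3.04 and 4.87 RPM in wildtype, 57.26, 65.47 and 81.20 RPM in *tm1452* and 18.96, 20.38 and 17.75 RPM in *glm27*, with no overlap (exact two-sided permutation p = 0.1 for each allele, the smallest possible). The 22G-RNAs of the 241 of these that were tested had medians of −0.21 and −0.35, beside −0.29 and −0.36 at 2889 other CSR-1 loci. Sperm markers moved in the same order, and their part was not tested. On the X chromosome the 57 tested loci, of 178, had 22G-RNA medians of 0.07 and −0.27. Their median wildtype level of 3.89 RPM lay near the filter at a mean of 2 RPM, whose effect on these medians was not tested. The mRNA medians of the X-linked CSR-1 loci with a tested mRNA were −0.33 and −0.25.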

How the data were processed

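Small RNA and mRNA libraries were read from one table each, with 9 libraries in 3 groups. The authors made the small RNA values with the tinyRNA pipeline on WormBase annotations and deposited them as RPM, counting 22G-RNAs as antisense reads that start with G and dividing reads among their hits. For mRNA the authors used fastp, STAR, RSEM and DESeq2 and deposited estimated counts divided by size factors, a signal that is not whole reads. Counts as such were not used. Plain counts over size factors had been assumed in the plan, so limma was used for both tables. Sequencing depth in reads is unknown from these values, so no counting interval is given.

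CSR-1 loci were joined to mRNA by gene identifier. Log2(value + 1) was fitted in limma 3.58.1 (R 4.3.3) over all 9 libraries with 1 term per genotype, after asking for a mean of at least 2, and p was adjusted by Benjamini-Hochberg over the whole table. Fold changes are on that scale, which understates the change of low genes. The procedure was tested on simulated data. For sums of RPM an exact permutation test was used. Positions and exons came from WBcel235. Loci and examples in the text were taken by rank of level or change and from the gene lists, and members, lists and rules were chosen with earlier results of these data known. Alternatives were pseudocount, filter, scaling, trend, replicate block and leaving out each library. List names *msh-4*, *spe-7*, *ssp-11* and *trp-3* had no match.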

Additional observations from a re-analysis of the deposited data

Results flagged for a closer look

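Values below are set apart because a test of the difference between the alleles passed. Among the loci so named these were the 22G-RNAs of *tcer-1* (−1.46, *tcer-1(tm1452)* minus *tcer-1(glm27)*, log2), *F10G7.10* (−1.99), *lrp-2* (−1.92), *madd-3* (1.58), *gakh-1* (1.34) and *ints-5* (1.25), and the mRNAs of *Y39G10AR.15* (2.12), *set-28* (2.48), *C02G6.2* (1.77) and *dml-1* (1.06), all by limma over the whole table. The *tcer-1* value rests on reads assigned to a gene whose exons the inferred glm27 deletion removes. The 26G-RNAs at the 291 CSR-1 loci that are also ALG-3/4 class lie outside the 22G-RNA measurement. Their sums, 67.98 RPM in *tcer-1(tm1452)* and 19.03 RPM in *tcer-1(glm27)*, were above the 3.70 RPM of wildtype. Groups of 3 were too small for a check of single libraries against their group.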

How the results depend on the processing

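Scaling decided how many 22G-RNA changes at CSR-1 loci passed, and the mRNA changes depended on it less. In the order *tcer-1(tm1452)* lower and higher, *tcer-1(glm27)* lower and higher, both alleles lower and higher, 2-fold 22G-RNA counts were 12, 21, 17, 18, 6 and 6 with equal upper quartiles, 12, 22, 16, 18, 6 and 7 with the median of ratios, 297, 3, 577, 4, 225 and 3 with equal miRNA totals, and 17, 19, 22, 16, 8 and 6 with equal CSR-1 locus totals. A pseudocount of 5 gave 5, 5, 10, 5, 3 and 2, and a filter at a mean of 10 gave 9 lower in *tcer-1(tm1452)*, 25 in *tcer-1(glm27)* and 4 in both, where fewer loci were tested. A pseudocount of 0.5 gave 36 lower in both. Between the alleles, 4 were lower and 4 higher with a pseudocount of 5 or a filter at 10.

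At any size the counts in that order were 363, 409, 477, 427, 235 and 228 with equal upper quartiles, 363, 422, 479, 442, 237 and 238 with the median of ratios, 2553, 22, 2750, 17, 2442 and 8 with equal miRNA totals, and 550, 429, 743, 390, 389 and 228 with equal CSR-1 locus totals. With the filter at 10 they were 887 and 61 in *tcer-1(tm1452)*, 1001 lower in *tcer-1(glm27)* and 765 lower in both. The 22G-RNA medians were −0.20 and −0.25 with a pseudocount of 5, 0.011 and −0.014 with equal upper quartiles, 0.014 and −0.0097 with the median of ratios, −0.63 and −0.72 with equal miRNA totals, and −0.033 and −0.075 with equal CSR-1 locus totals, and the summed level turned to 1.04 and 1.05 times wildtype under the median of ratios. The mRNA results moved mainly with equal upper quartiles, to medians of −0.27 and −0.27, and to 261 higher at any size in *tcer-1(glm27)* and 181 in both alleles. The 2-fold lower counts were then 25 in *tcer-1(glm27)*, from 42, and 20 in both alleles, from 30.

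Leaving out 1 library at a time gave 40 to 51 lower and 7 to 10 higher 22G-RNAs in *tcer-1(tm1452)*, 85 to 105 and 7 to 9 in *tcer-1(glm27)*, and 20 to 28 and 3 to 4 in both. The mRNA median in *tcer-1(tm1452)* ranged from −0.33 to −0.30, and the summed level from 0.800 to 0.845 and from 0.781 to 0.826 times wildtype. For the named loci, 2658 values under other settings stayed as they were, called or not called at 2-fold. A further 26 gained a call, 56 lost it and 0 reversed while called. The 2658 include values never called, and changes of sign below 2-fold were not counted as reversed. Such changes did occur under rescaling at many named loci besides *cls-2* and *klp-7* in *tcer-1(glm27)*, given above. Among them, in either allele, were *top-2*, *unc-85*, *znfx-1*, *ego-1*, *drh-3*, *prp-8*, *npp-10* and *glh-1*.

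Replicate numbers were shared across groups, but same-numbered libraries did not deviate together in every pair, so the samples share only a number. A replicate block left the 2-fold 22G-RNA counts at 43 and 10, 90 and 7, and 20 and 4, and gave 1066 lower and 29 higher at any size in both alleles. The mRNA counts at any size in both were 2344 and 111 with the block. Values near 1 RPM rest on few reads, and depth in reads is unknown.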
